A study of Mus musculus with 2 samples.

Results

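CTCF binding was described at 5 mucin genes in the stomach of newborn mice. Muc6, Muc2, Muc5ac and Muc5b lie side by side on chromosome 7, and Muc1 lies alone on chromosome 3. The genes were fixed by name out of 21853 protein-coding genes of GENCODE release M21. Peaks were taken by the position of their summit, over the cluster and over Muc1 with 50 kb on either side. The optimal list, made by the authors after comparing replicates, had 15 peaks in the cluster window and 18 in the Muc1 window, of 74283 on chromosomes.

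The data are ChIP-seq, in which an antibody against CTCF recovers the DNA it is bound to, from stomach tissue of strain B6NCrl on postnatal day 0. There was 1 group with 2 samples, labelled as biological replicates 1 and 2. The labels give 1 donor and 1 tissue sample for both, so their spread may be technical. No other genotype, treatment or age was compared and no expression was measured, so the tissue label could not be set against marker genes. Whole stomach mixes epithelium, muscle, nerves and blood, and a peak in few cells cannot be told apart from weak binding in many. Read numbers were not used here, and the depth behind a peak is unknown.

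Mucins are large glycoproteins that form mucus. Muc2, Muc5ac, Muc5b and Muc6 are secreted and form gels, while Muc1 is anchored in the cell membrane. Muc5ac is made by the surface cells of the stomach and Muc6 by the mucous cells of its glands. Muc2 is the main mucin of the intestine, and Muc5b is known from airways and salivary glands. CTCF is a zinc finger protein that, together with cohesin, forms chromatin loops, often between sites whose motifs face each other.

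Peak sequences are shown here because the motif and its strand set the mucin sites apart from each other. Each is the 101 bases of the GRCm38 reference (mm10 coordinates) around the summit of an optimal peak. The first 6 held a match to a CTCF matrix of 19 positions with the consensus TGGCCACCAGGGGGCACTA. They are written on the strand of the match, with the match in capitals. Labels name the mucin gene alone, though other genes lie close to both Muc1 peaks. The labels nearer Muc6 and nearer Muc2 give the place within a pair of peaks, both closer to the Muc6 start.
Muc1 start, chr3:89228259-89228359, plus strand: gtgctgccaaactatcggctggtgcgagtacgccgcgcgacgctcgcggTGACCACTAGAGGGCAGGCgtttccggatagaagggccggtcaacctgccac
Muc1 end, chr3:89234005-89234105, minus strand: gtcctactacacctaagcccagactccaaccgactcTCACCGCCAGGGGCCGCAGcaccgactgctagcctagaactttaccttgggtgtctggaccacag
Muc6 intron, chr7:141643323-141643423, plus strand: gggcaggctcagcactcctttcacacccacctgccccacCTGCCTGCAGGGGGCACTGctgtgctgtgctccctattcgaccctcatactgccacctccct
Muc6 to Muc2, nearer Muc6, chr7:141666352-141666452, minus strand: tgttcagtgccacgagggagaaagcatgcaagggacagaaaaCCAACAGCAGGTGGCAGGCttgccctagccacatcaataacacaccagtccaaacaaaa
Muc6 to Muc2, nearer Muc2, chr7:141671169-141671269, minus strand: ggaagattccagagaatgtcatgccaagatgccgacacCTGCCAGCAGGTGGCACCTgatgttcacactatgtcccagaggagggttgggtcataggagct
Muc5ac end, chr7:141818372-141818472, minus strand: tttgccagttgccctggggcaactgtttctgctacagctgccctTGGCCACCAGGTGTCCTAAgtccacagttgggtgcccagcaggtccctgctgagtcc

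The next 4 peaks, at or in mucin genes, had no match at the threshold, and are written on the plus strand. The first of them was the strongest peak of the cluster window.
Muc2 end, chr7:141755952-141756052, plus strand: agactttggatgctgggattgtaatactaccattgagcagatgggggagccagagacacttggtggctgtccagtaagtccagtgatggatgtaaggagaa
Muc2 exon, chr7:141693659-141693759, plus strand: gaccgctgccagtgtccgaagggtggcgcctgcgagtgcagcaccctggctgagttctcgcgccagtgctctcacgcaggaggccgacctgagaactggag
Muc5b start, chr7:141838852-141838952, plus strand: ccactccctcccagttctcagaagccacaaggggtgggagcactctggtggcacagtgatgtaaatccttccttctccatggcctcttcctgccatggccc
Muc5b exon, chr7:141870707-141870807, plus strand: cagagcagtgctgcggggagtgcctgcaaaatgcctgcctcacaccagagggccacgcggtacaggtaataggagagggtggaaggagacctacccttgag

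The chromosome 7 cluster spanned 141633456 to 141873084, and the strongest CTCF peaks lay between its genes. The window of 340 kb had 4.42 optimal peaks per 100 kb, against 2.90 over the whole series. Set against single coding genes with the same flanks, the cluster genes ranged from above 25.2% of them (Muc5b) to above 79.0% (Muc6). Signal is the authors' own value for each peak, with no unit stated. It lay between 14.6 and 419 in the window, with a median of 57.1, against a median of 76.6 over all optimal peaks. Of the 15 peaks, 12 lay between the outer ends of Muc6 and Muc5b.

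**Figure D1:**
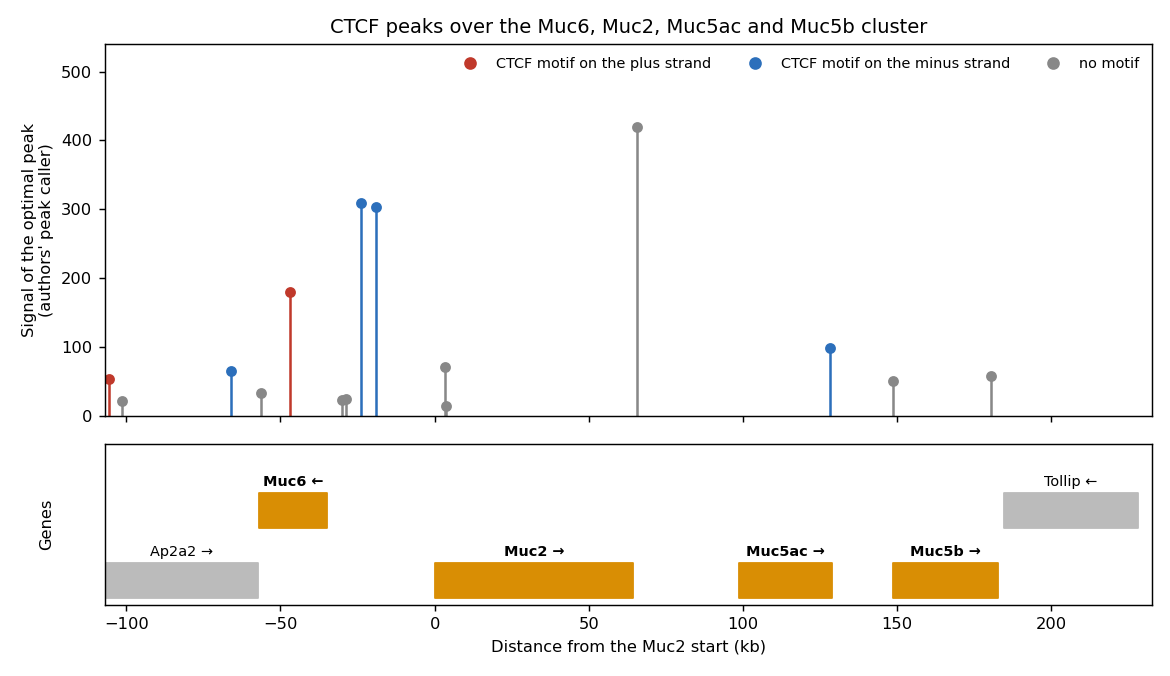
Signal of each optimal CTCF peak over the chromosome 7 mucin cluster (y axis) by distance from the Muc2 start in kb (x axis), with coding genes below and arrows for their direction. Peaks with a motif are coloured by its strand. The highest signals, 419, 309 and 304, stand beyond the Muc2 end and between Muc6 and Muc2.

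Muc6 (ENSMUSG00000048191.15, minus strand, 21.9 kb) had 2 optimal peaks in its body and none within 1 kb of its start. The stronger lay in intron 26 of a transcript with 34 exons (chr7:141643287-141643482), with signals of 121 in replicate 1 and 60.2 in replicate 2, and 180 in the optimal list. Its motif was on the plus strand, opposite to transcription. The other lay in the coding part of exon 34, the last, 617 bp from the gene end (chr7:141633925-141634220). Its signal was 17.8 in replicate 1 and 15.9 in replicate 2. The optimal peak nearest the Muc6 start was 5121 bp upstream and weak, with signals of 13.3 and 9.64 in replicates 1 and 2. A second weak one followed at 6308 bp, with 14.4 and 10.1.

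Muc6 and Muc2 are transcribed away from each other, and a pair of strong CTCF peaks stood in the space between their starts. They lay 11083 and 15900 bp upstream of the Muc6 start (chr7:141666278-141666533 and chr7:141671096-141671334). Both were closer to that start than to the Muc2 start. The one nearer Muc6 reached 175 in replicate 1 and 134 in replicate 2, and the one nearer Muc2 reached 168 and 135. The members of the pair thus had almost the same signal in each replicate. In the optimal list they stood at 309 and 304, above 82.9% and 82.4% of all optimal peaks. Both motifs were on the minus strand, 4817 bp separated the summits, and the matches shared 10 and 13 of 19 bases with the consensus. The highest-scoring match of the window without an optimal peak, at 21.1, lay 3985 bp from the nearest optimal summit, on the Muc2 side of the pair. It sat in repeat-masked sequence (chr7:141675195-141675213), and the signals nearest to it were 4.70 and 2.78 in replicates 1 and 2. The list of both replicates together had a peak of 10.7 with its summit 3 bp from it.

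Muc2 (ENSMUSG00000025515.15, plus strand, 64.4 kb) had 2 adjoining peaks near its start and the strongest peak of the window beyond its end. The peaks near the start lay 3369 and 3570 bp into the gene, in the coding part of exon 6 and in intron 6 of a transcript with 20 exons. The exonic one (chr7:141693561-141693856) measured 57.0 in replicate 1 but 16.1 in replicate 2. The intronic one (chr7:141693762-141694057) had 14.2 and 11.7. The replicates were thus close at the intronic peak and apart at the exonic one, with a ratio of 3.54 there. Over all optimal peaks with both signals the ratio of replicate 1 to replicate 2 had a median of 1.33, and its 5 and 95 percentiles were 0.826 and 2.62. The 2 lists are not scaled to each other. Neither peak had a match inside the searched window, but a minus-strand match of 14.1 was centred 47 bp from the intronic summit, between the 2 summits.

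No further optimal summit followed for 62.1 kb, longer than 87.8% of the distances between neighbouring optimal summits. The next peak lay 1309 bp past the Muc2 end (chr7:141755869-141756150), with a signal of 419. It had 231 in replicate 1 and 189 in replicate 2, and stood above 94.2% of optimal peaks. Its best motif score was 10.3, under the threshold of 10.7 that 1% of random windows met. The same summit was 32970 bp upstream of the Muc5ac start.

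Muc5ac (ENSMUSG00000037974.16, plus strand, 30.3 kb) was alone among the 5 genes in having no optimal peak within 10 kb of its start. Between the peak at the Muc2 end and the next one stretched 62.4 kb, which held the Muc5ac start and all but the end of the gene. That next peak lay in intron 48 of a transcript with 49 exons, 809 bp before the gene end (chr7:141818353-141818477). Its signals of 50.3 and 47.3 in replicates 1 and 2 were close, and its motif was on the minus strand. At the start itself, the list of both replicates together had a peak 147 bp upstream with a signal of 7.59 and a motif score of 11.3. Replicate 1 had 9.48 there, and replicate 2 had no peak within 100 bp.

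Muc5b (ENSMUSG00000066108.7, plus strand, 34.0 kb) had an optimal peak 168 bp upstream of its start, the closest of the 5 genes. It spanned chr7:141838754-141839049 with a signal of 34.7 in replicate 1 and 13.6 in replicate 2. With 49.97 in the optimal list it stood above 37.5% of optimal peaks. Its best motif score was 8.89, below the threshold. A second peak lay in exon 45 of 49 (chr7:141870609-141870904), in coding sequence 2327 bp before the gene end, with closer signals of 30.5 and 29.3. No match lay within 150 bp of either summit.

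The borders of the cluster differed in strength. On the Muc6 side the gene end adjoins Ap2a2, which encodes a subunit of the endocytic adaptor AP-2, and its introns held peaks of 64.8, 52.9 and 21.6. The peak of 64.8 had its motif on the minus strand and the one of 52.9 on the plus strand. Outside the window on this side, the first optimal summit was 17198 bp away. It had a signal of 34.5 in the optimal list and a motif on the plus strand. On the Muc5b side lies Tollip, which encodes an adaptor of Toll-like receptor signalling, and no optimal summit lay in the window beyond exon 45 of Muc5b. The first one outside was 2025 bp past the window (chr7:141924944-141925271), 6602 bp upstream of the Tollip start. It had signals of 240 and 170 in replicates 1 and 2 and a motif on the minus strand, and stood at 410 in the optimal list.

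Muc1 (ENSMUSG00000042784.9, plus strand, 4325 bp) was bracketed by 2 CTCF peaks, had none inside, and lay in a stretch dense in them. The window had 17.3 optimal peaks per 100 kb, against 2.90 over the series. Taking each coding gene with 50 kb on either side, Muc1 exceeded 98.5% of coding genes in this density. Muc6 exceeded 79.0%, Muc2 48.6%, Muc5ac 25.5% and Muc5b 25.2%. The windows of the 4 clustered genes overlap each other. The Muc1 window also held 10 starts of coding genes, against 5 in the longer cluster window.

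**Figure D2:**
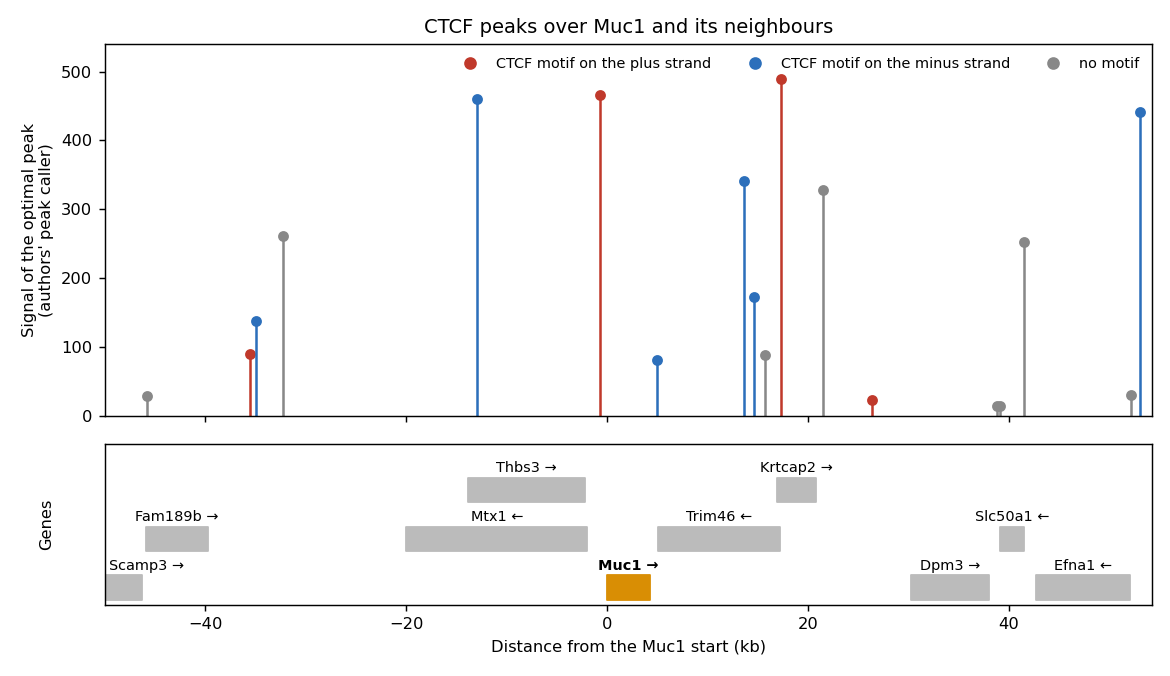
Signal of each optimal CTCF peak around Muc1 (y axis) by distance from the Muc1 start in kb (x axis), with 10 of the 11 coding genes below and arrows for their direction. Peaks with a motif are coloured by its strand. Muc1 stands between a plus-strand peak of 467 and a minus-strand peak of 81.0.

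The peak upstream of Muc1 lay 748 bp before its start (chr3:89228160-89228469). Replicate 1 gave it 264 and replicate 2 gave it 206, and the optimal value of 467 exceeded 97.7% of optimal peaks. Its motif, on the plus strand, scored 20.4 and pointed towards the gene. The window of 101 bases around it had 12 CpG dinucleotides, the most of the 33 peaks. This peak was also 1221 bp from the start of Mtx1, which is transcribed away from Muc1. The peak downstream lay 674 bp past the Muc1 end and 4998 bp from its start (chr3:89233907-89234202). It also overlapped the end of Trim46, which is transcribed towards Muc1. It had 48.5 and 36.3 in replicates 1 and 2, and its motif, scoring 11.7, was on the minus strand. The 2 motifs thus faced each other across Muc1, with 5746 bp between the summits. The Muc1 body held 4 peaks of the list of both replicates together, with signals up to 9.06, of which 1 had a peak in each replicate list within 100 bp.

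The strongest peak of the Muc1 window belonged to its neighbours. It lay in the untranslated region of Krtcap2, which encodes a subunit of the oligosaccharyltransferase, 17316 bp from the Muc1 start (chr3:89246225-89246567). It had signals of 286 and 205 in replicates 1 and 2, and 489 in the optimal list. Its motif on the plus strand scored 22.1, the highest of the 33 peaks. This peak was also 64 bp from the outer start of Trim46, which is transcribed the other way from Krtcap2. Next in signal to this and the Muc1 start came a peak within introns of both Thbs3, a thrombospondin gene, and Mtx1, a gene for a mitochondrial outer membrane protein. It stood 12969 bp upstream of Muc1, with 273 and 189 in replicates 1 and 2 (chr3:89215936-89216224). A peak 1002 bp upstream of Efna1, which encodes the ligand ephrin-A1, had 248 and 195 (chr3:89281987-89282288). Both of these had their best motif on the minus strand. The peak within Thbs3 and Mtx1 also held a plus-strand match of 13.2, centred 38 bp from its summit.

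Trim46, which encodes an organiser of neuronal microtubules, ends next to Muc1 and held 3 further peaks, of 340, 172 and 88.7 in the optimal list. Those of 340 and 172 had minus-strand motifs. The one of 88.7, in the untranslated region 183 bp from a Trim46 start, had no match. A peak of 327 between Krtcap2 and Dpm3, one of 260 that lay 32249 bp upstream of the Muc1 start, and one of 252 at the start of the sugar transporter gene Slc50a1 also had no match within 150 bp. The peak of 260 had almost equal signals of 131 and 129 in replicates 1 and 2, and its best motif score was 2.08. A peak of 138 stood 34977 bp upstream of Muc1, with 84.0 and 53.3 in replicates 1 and 2 and a minus-strand motif in masked sequence. The remaining peaks of the window ran from 13.5 to 89.8. Among them were 2 of 13.6 and 13.5, 218 bp apart and past the end of Dpm3. A masked plus-strand match of 16.1 lay 60 bp from one of them. Replicate 1 had both, with signals of 5.19 and 8.11, and replicate 2 had a single peak of 9.18 centred 46 bp from the match, over 100 bp from either summit.

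At the gene starts, 2 of the 5 mucins, Muc5b and Muc1, had an optimal peak within 1 kb, as had 42.3% of all coding genes. Within 10 kb it was 4 of 5, against 69.7%. Measured from the outer gene start alone the counts were again 2 and 4, against 37.6% and 66.8% of coding genes. In the bodies, Muc6, Muc2, Muc5ac and Muc5b had a summit and Muc1 had none, and 58.9% of coding genes had one. With 5 genes these shares stand near the background, and no test was made. Gene length was not taken into account in the bodies, where Muc1 spans 4.3 kb and the others 21.9 to 64.4 kb. Of the 8 coding transcripts of Muc2, 4 are marked as open at the 5′ end, and its distances here are from the outer gene start.

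**Figure D3:**
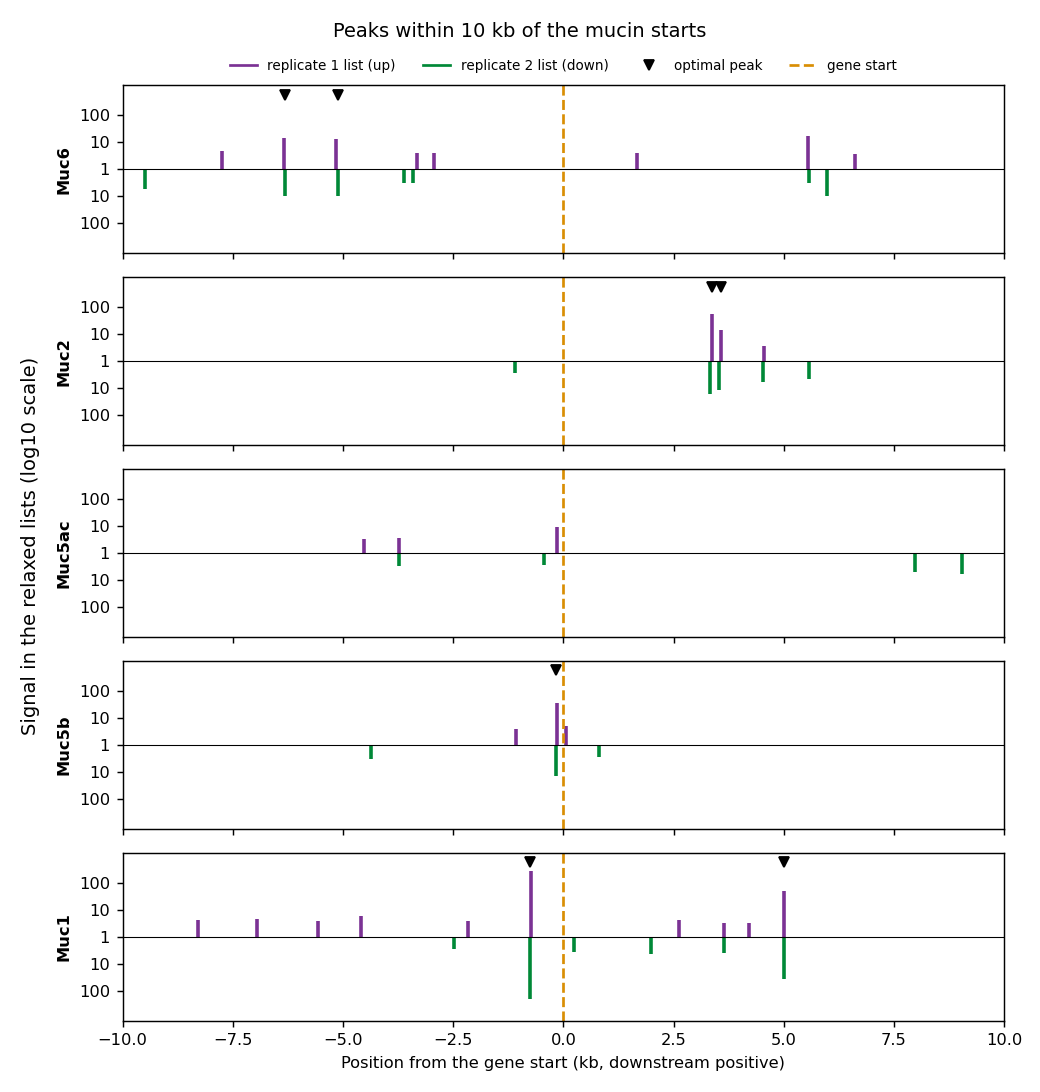
Peaks of the replicate 1 list (upward) and the replicate 2 list (downward) within 10 kb of each mucin start, with signal on a log10 scale (y axis) and position in kb, downstream positive (x axis). Triangles mark optimal peaks, as at 168 bp upstream of Muc5b and 748 bp upstream of Muc1.

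Most peaks of both windows were found in both replicates. A peak counted when each replicate's strongest 74283 peaks held a summit within 100 bp. That was so for 14 of 15 in the cluster window and 14 of 18 in the Muc1 window, against 83.2% of all optimal peaks. The optimal list was itself made by comparing these replicates, so a high share follows in part from its making. The exception in the cluster window was the Ap2a2 intron peak of 21.6. In the Muc1 window the exceptions were the pair past Dpm3, a peak of 22.5 before Dpm3 and one of 30.6 at the Efna1 start. All 5 had an optimal signal of at most 30.6. The conservative list, a stricter one of the authors, held all 15 cluster peaks and 14 of the 18, against 88.5% of all optimal peaks. Replicate 1 had the higher signal in 15 of 15 cluster peaks and 15 of the 16 Muc1 window peaks with both signals, as in 88.5% of all. The exonic Muc2 peak and the Efna1 start peak, with a ratio of 3.30, lay above the 95 percentile.

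**Figure D4:**
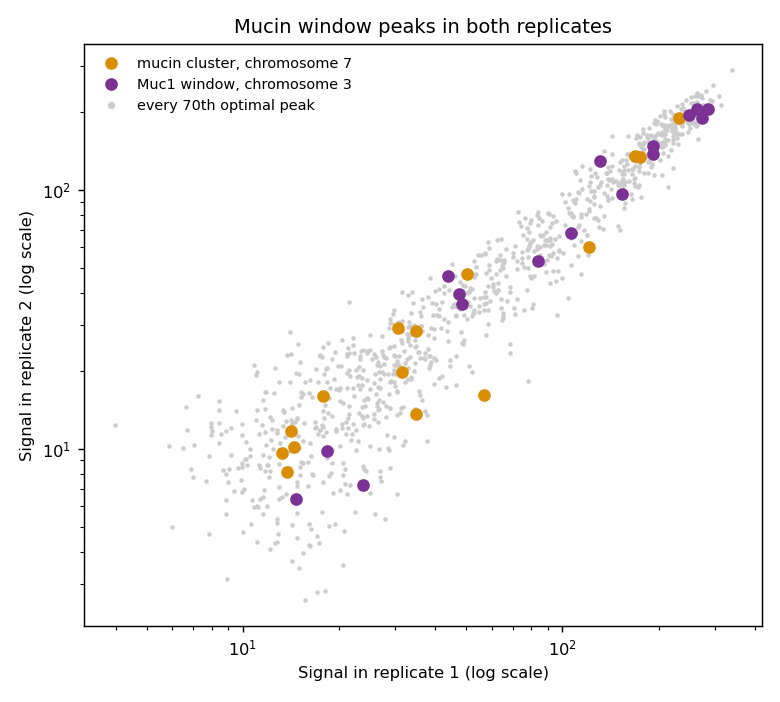
Signal in replicate 1 (x axis) and replicate 2 (y axis), both on a log scale, for the optimal peaks of the cluster window and of the Muc1 window that have both, over every 70th optimal peak. The exonic Muc2 peak, at 57.0 and 16.1, has the largest ratio of the mucin window peaks, 3.54.

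A motif was found in 6 of 15 peaks of the cluster window, or 40%, and in 10 of 18 of the Muc1 window, or 55.6%. The share was 67.5% over all optimal peaks outside chromosome 1, from which the matrix was built. In the cluster window, peaks counted without a motif scored 10.67, 10.45 and 10.31, just under the threshold of 10.68. Others there scored 9.05 and 8.89, over the 8.53 that 2% of random windows met. In the Muc1 window, scores between these thresholds were 10.56 and 8.58. The shares of the windows thus depend on where the threshold is set. In both windows together, 3 of 8 peaks within 1 kb of a coding start had a motif, against 34.8% of such peaks over the series. Of the 25 others 13 had one, against 73.6%. These differences from the series were not tested. The peaks with a motif had a median signal of 140 in the cluster window and 256 in the Muc1 window, and those without one 33.7 and 59.6. Over the series the medians were 121 and 40.7. Among the 16 peaks with a motif, its centre lay at a median of 3 bp from the summit and at most 12 bp. At 4 of the 16 it lay in masked repeat sequence, none of them within 10 kb of a mucin gene body or in one. The share of masked motifs over the series was not counted.

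**Figure D5:**
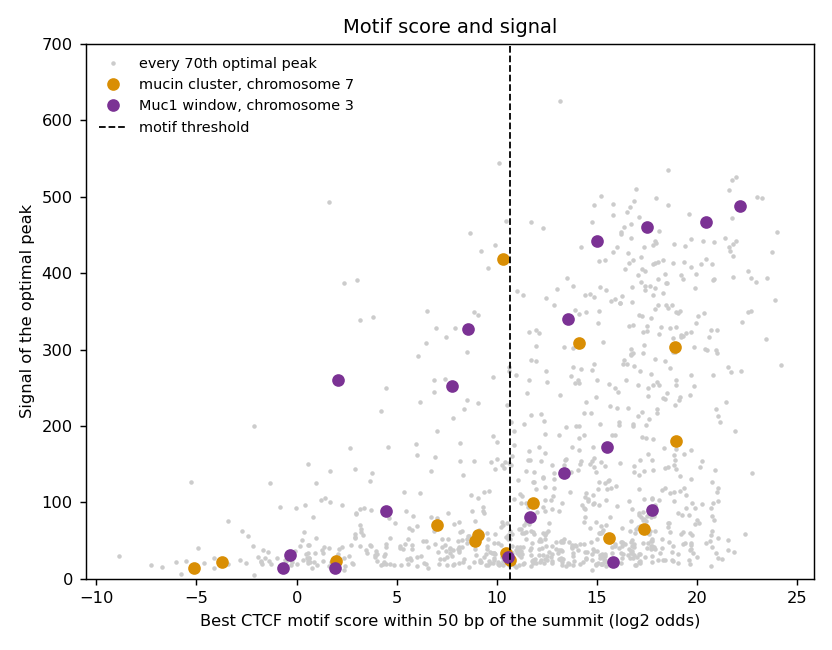
Best CTCF motif score within 50 bp of the summit as log2 odds (x axis) and signal of the optimal peak (y axis) in both mucin windows, over every 70th optimal peak, with the motif threshold as a dashed line. The Muc2 end peak, at 419, stands just left of the threshold of 10.7.

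The peaks of the most common width were the weaker ones. This width, 296 bp, was given to 10 of the 15 cluster peaks and 6 of the 18 Muc1 window peaks, against 50.9% of all optimal peaks. These had median signals of 41.8 and 25.8 in the 2 windows, and the other peaks had 304 and 294. A motif was present in 4 of these 16 peaks, against 53.2% of such peaks over the series, and in 12 of the 17 others, against 82.5%. All 7 peaks within 1 kb of a coding start in the Muc1 window lay in sequence of 53.5% to 69.3% GC, with a median of 64.4%, and the 11 others had a median of 51.5%.

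From the Ap2a2 side, the strands of the 6 motifs of the cluster window were plus, minus, plus, minus, minus and minus. The last 3, from the Muc6 to Muc2 space to the Muc5ac end, thus pointed the same way. The Muc2 end peak lies among them but was not counted. Its best match, of 10.3 on the plus strand, fell just under the threshold. Of the 4 neighbouring pairs up to 100 kb apart, 2 were convergent, 1 divergent and 1 in the same direction. In the Muc1 window 3 of 9 pairs were convergent, 2 divergent and 4 in the same direction. Over the series 22.7% of such pairs were convergent, 24.4% divergent and 52.8% in the same direction. Each peak entered these pairs by its best match alone. Loops were not measured.

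Most motif matches in the windows had no optimal peak. The cluster window had 57 matches, of which 7 (12.3%) had an optimal summit within 50 bp, and the Muc1 window had 37, of which 11 (29.7%) had one. Outside chromosome 1, 16.5% of matches had one. The Muc2 body held 7 matches, 1 with an optimal peak, and Muc6 held 5 with 1. Muc5ac held 4 with 1, Muc5b 3 with none, and the Muc1 body had no match. Peaks of the list of both replicates together that lay over 300 bp from an optimal summit numbered 7 in and within 1 kb of Muc2, 6 each at Muc6 and Muc5ac, 5 at Muc5b and 4 at Muc1. Their signals ran up to 19.9, at Muc6. Each replicate list had a summit within 100 bp at 2 of those of Muc6, 2 of those of Muc2, 1 at Muc1 and none at Muc5ac or Muc5b. The list of both replicates together held 299926 peaks on chromosomes, and the genes differ in length. No such count was made over all coding genes, so these numbers are not read as particular to the mucins.

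Further mucin genes and genes that act in mucus were counted in the same way. Of 12 other mucins and mucin-like genes, 10 were found in the annotation by symbol, 1 had an optimal peak within 1 kb of a start and 6 within 10 kb. The strongest within 10 kb were at Muc13, a membrane mucin of the gut (signal 342), Cd164, a sialomucin (281) and Muc16, a membrane mucin (69.4). Emcn, an endothelial sialomucin, and Muc15 had none within 10 kb of a start, though Emcn had 1 in its body. Of 23 genes of mucus secretion and mucin glycosylation, 6 had a peak within 1 kb and 19 within 10 kb. Tff3, a trefoil peptide of goblet cells, led with 451, then Clca1, a secreted goblet cell protein, with 428 and Galnt4, a transferase that starts O-glycosylation, with 386. A4gnt, whose product caps the glycans of Muc6, and Fcgbp, a mucus protein, had none within 10 kb of a start. Fcgbp had 2 in its body. The share of all coding genes was 42.3% within 1 kb and 69.7% within 10 kb, and the lists were not tested.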

How the data were processed

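ChIP-seq against CTCF was deposited as 5 peak lists in mm10 coordinates, per the labels. The lists of replicate 1, replicate 2 and both together, before thresholding, held 300000 peaks each. The optimal and conservative lists are named as thresholded by IDR, which compares peak ranks between replicates, in the text files deposited with the samples. For the aligner, peak caller and thresholds, no version or setting is given in the sources used here. The deposited signal of a peak is the authors' own value, used to describe and rank within a list. The deposited −log10 of a q-value ran from 0.270 to 5.12 in the optimal list, and the deposited score from 537 to 1000.

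Only assembled chromosomes (19 autosomes, X and Y) entered, which left 74283 of 74293 optimal peaks. The CTCF matrix was built from chromosome 1, using its 1000 highest optimal signals, of which 982 sequences aligned. A match needed a score of 10.7, which 1% of 100000 random windows reached, wholly within 50 bp of the summit. The motif search was tested on simulated data. Sequence came from the RefSeq GRCm38 assembly, so it is not the sequence of these animals, and genes from GENCODE. Python 3.11.15, numpy 2.4.6, pandas 2.3.3, numba 0.67.0 and matplotlib 3.10.9 were used. Replicates were compared through the 74283 strongest peaks of each. With 1 group no test was made, and values over peaks or genes are descriptions.

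The genes and lists were chosen with earlier results of these data known. Peaks named were the 10 strongest of each window and all in a mucin gene or within 1 kb of its start. Neighbouring genes were named where they held or adjoined such a peak, and from the other lists the 3 with the strongest peak and the first 2 by name with none. Weaker peaks were singled out after their values were seen. Alternatives were the conservative list, the stronger part of the optimal list, other flanks and summit distances, other motif thresholds, and each replicate alone. A neighbour of Muc1 is not reported here.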

Additional observations from a re-analysis of the deposited data

How the results depend on the processing

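Of 41 alternative values, 34 stayed within 1.5 times the count given above. In the 37141 strongest optimal peaks, the cluster window had 5 peaks, the mucin bodies 2, the starts 1 within 1 kb and 2 within 10 kb, and 18 peaks of both windows were in both replicates. Without flanks, Muc1 had 0 peaks. With flanks of 100 kb the cluster window had 22 peaks and the Muc1 window 27. These were counted as within 1.5 times although the windows were larger. The motif threshold met by 0.1% of random windows left 6 of 16 motifs, and that met by 2%, chosen after seeing the data, gave 23. From 1 replicate alone, the cluster window had 15 to 16 peaks, the Muc1 window 15 to 16, and the bodies 7. Finding a peak in both replicates could not be recomputed from 1. No paired analysis was possible because there was 1 group. Depth is unknown, so a start with no optimal peak says only that none passed the authors' threshold.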
